A study of Mus musculus with 6 samples.

Results

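The regions described here were regulatory elements that the activity-by-contact (ABC) model listed as active in untreated oligodendrocyte precursor cells and not at all in cells exposed to interferon gamma (IFN-γ). An element belonged to the set when its activity in Ctr-OPCs was at least 1 and no element of the IFN-γ-OPC table overlapped it by 1 bp or more. The Ctr-OPC table held 33083 unique elements, of which 13799 were active by this threshold and 3248 belonged to the set. Members were therefore chosen by their activity in 1 condition and their absence from the other, and neither property is a finding about them.

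Oligodendrocyte precursor cells (OPCs) are the dividing cells of the brain from which myelinating oligodendrocytes arise. They were cultured from brains of C57BL/6j mice of genotype Sox10-Cre/RCE, in which a fluorescent reporter marks cells that have expressed Sox10. The study's methods give the reporter line of this cross a mixed genetic background. Per the study's methods the pups were 4 to 6 days old, several brains were pooled, and each replicate came from other litters. Ctr-OPCs received medium with bFGF and mPDGF-AA at 20 ng/mL each, and IFN-γ-OPCs received the same medium with 100 ng/mL IFN-γ from 24 h after passaging. These values are those of the labels, and for OPC culture the study's methods state a higher bFGF concentration. Chromatin contacts were measured by HiChIP for acetylated lysine 27 of histone H3 (H3K27ac) in 6 libraries, 3 per condition, and the 3 libraries of a condition were pooled into 1 table.

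Enhancers are stretches of open chromatin, often marked by H3K27ac, that raise transcription of genes at a distance by coming near their promoters. The ABC model multiplies the activity of an element, here from ATAC-seq and H3K27ac signal, by its contact with a promoter. The ABC score is that product as a fraction of the sum of such products for the gene, so it states which part of the gene's input comes from the element. In OPCs, enhancers near genes such as Olig1 and Sox6 take part in keeping lineage identity. IFN-γ switches on antigen presentation genes, in part through IRF transcription factors.

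With 1 pooled table per condition, no value had a replicate error and no difference between conditions was tested. The depth behind the tables is unknown. The promoters of the OPC markers Pdgfra, Cspg4, Ptprz1, Olig1, Olig2 and Sox10 ranked high in both tables, with promoter activity quantiles of 0.852 to 0.982 in Ctr-OPCs and 0.815 to 0.994 in IFN-γ-OPCs. Of 6 microglial markers, 3 were listed in Ctr-OPCs, at quantiles of 0.473 to 0.782, and 5 in IFN-γ-OPCs, at 0.471 to 0.825. Neuronal markers were listed at 5 of 5 in both tables, at quantiles of 0.644 to 0.870 in Ctr-OPCs and 0.573 to 0.868 in IFN-γ-OPCs, which overlapped the range of the OPC markers. Astrocyte markers were listed at 4 of 5 in both tables, and endothelial and mural markers at 3 of 5 in Ctr-OPCs and 5 of 5 with IFN-γ. Cells were purified before culture, by sorting for the Sox10 reporter or with CD140a beads, per the study's methods. The part of other cell types in the results was not tested, and fewer cells using an element cannot be told apart from less use per cell.

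Sequences of 5 members are shown because the results below turn on them. They are the central 300 bp, or for the element near Gm10717 the last 300 bp, read from the plus strand of GRCm38.p6, the build that mm10 names. Capitals mark matches to the motifs described further on. The element upstream of Grm3, the gene of a metabotropic glutamate receptor, stands for members just outside a promoter (intergenic, chr5:9725951-9726250).
Grm3: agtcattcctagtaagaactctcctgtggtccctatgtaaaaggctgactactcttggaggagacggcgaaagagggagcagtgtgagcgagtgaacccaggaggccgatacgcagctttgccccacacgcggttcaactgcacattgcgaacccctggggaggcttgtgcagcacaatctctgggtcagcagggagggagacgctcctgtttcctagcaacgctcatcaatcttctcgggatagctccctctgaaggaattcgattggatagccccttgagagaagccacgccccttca
No motif of those searched fell in this stretch. The next elements had a gene of the OPC lineage, of the growth factor response or of myelin as their target.
The element in an intron of Tnr, the gene of the matrix protein tenascin-R, held 1 NFI match (chr1:159537990-159538289).
Tnr: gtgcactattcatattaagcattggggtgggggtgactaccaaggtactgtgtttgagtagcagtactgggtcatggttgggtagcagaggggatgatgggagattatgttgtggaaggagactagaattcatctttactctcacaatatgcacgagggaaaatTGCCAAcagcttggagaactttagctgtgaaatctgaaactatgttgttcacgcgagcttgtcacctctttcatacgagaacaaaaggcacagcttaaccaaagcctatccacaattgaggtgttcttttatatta
The element in an intron of Etv5, an ETS factor gene that responds to fibroblast growth factor, held 1 E-box (chr16:22438503-22438802).
Etv5: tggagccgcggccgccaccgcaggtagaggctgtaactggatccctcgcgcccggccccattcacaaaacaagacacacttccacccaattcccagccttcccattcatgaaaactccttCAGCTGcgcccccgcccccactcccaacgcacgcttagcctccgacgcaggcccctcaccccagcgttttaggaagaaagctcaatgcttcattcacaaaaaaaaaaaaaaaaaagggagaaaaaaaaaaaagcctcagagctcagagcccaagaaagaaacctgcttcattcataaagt
The element predicted for Cldn11, which encodes a tight junction protein of myelin, lay in an intron of Slc7a14 and held 1 AP-1 match (chr3:31213020-31213319).
Cldn11: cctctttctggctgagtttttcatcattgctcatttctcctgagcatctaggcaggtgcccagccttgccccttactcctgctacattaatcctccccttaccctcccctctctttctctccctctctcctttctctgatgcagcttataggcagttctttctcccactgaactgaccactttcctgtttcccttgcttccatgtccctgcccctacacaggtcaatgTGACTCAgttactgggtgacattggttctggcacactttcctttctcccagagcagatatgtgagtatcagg
The member with the highest score of all lay at the start of the assembled part of chromosome 9, and 97.3% of the bases shown were marked as repeats in the reference (chr9:3000056-3000355).
Gm10717: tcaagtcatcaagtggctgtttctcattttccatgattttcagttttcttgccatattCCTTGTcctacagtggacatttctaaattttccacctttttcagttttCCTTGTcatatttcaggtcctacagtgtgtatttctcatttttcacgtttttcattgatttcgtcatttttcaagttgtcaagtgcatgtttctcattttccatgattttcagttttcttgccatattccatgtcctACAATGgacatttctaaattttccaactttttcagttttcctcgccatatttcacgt

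The members made up 23.5% of the active Ctr-OPC elements. By the mirror rule, 3602 of 13562 active IFN-γ-OPC elements, or 26.6%, overlapped no Ctr-OPC element. The rule itself fixes both shares. The Ctr-OPC share was 10.02% at an activity threshold of 2, with 423 members. There were 9597 members at a threshold of 0.5 and 1844 with only protein-coding targets. With only scores above 0.05 kept in both tables, the set was drawn anew and held 1792 elements. Just 436 of the 3248 members scored above 0.05. Most elements of the redrawn set therefore overlapped an IFN-γ element whose scores were not above 0.05. Below, members are set beside the 10551 active Ctr-OPC elements that overlapped an IFN-γ element (shared elements) and the 3602 elements listed only with IFN-γ.

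Members were weak for active elements, and wide. Activity, a signal with no fixed unit, had a median of 1.33 in members, 1.67 in shared elements and 1.325 in elements listed only with IFN-γ (quartiles of the members 1.13 and 1.66). The highest member reached 9.17, against 44.3 among shared elements. An activity of 2 or more was found in 13.0% of members and 36.0% of shared elements. The median width was 969 bp in members, 500 bp in shared elements and 640.5 bp in elements listed only with IFN-γ, and 65.2%, 34.3% and 50.5% were wider than the minimum of 500 bp. Per 500 bp of element, the median activity was 0.692 in members, 1.44 in shared elements and 1.05 in elements listed only with IFN-γ. Only 1288 of the 3248 members had a density of at least 1 per 500 bp, so that for most of them the activity threshold was met over a longer stretch.

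**Figure D1:**
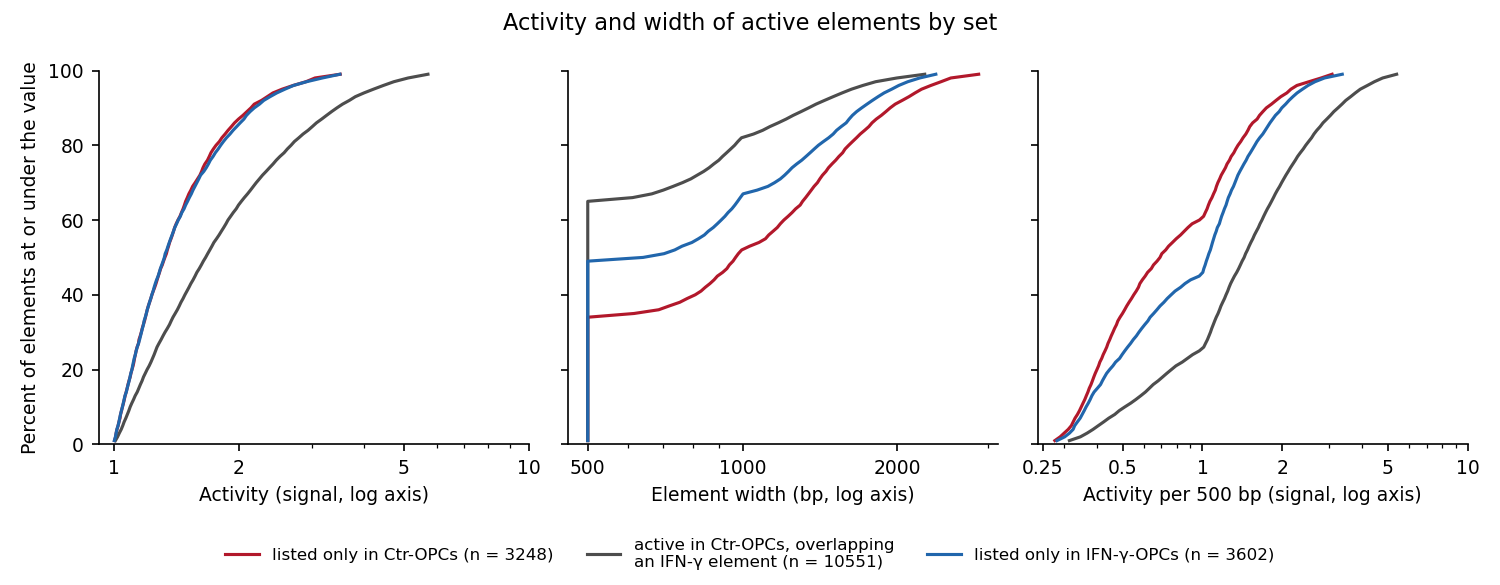
Cumulative percent of elements (y axis) by activity, by width in bp and by activity per 500 bp (log x axes, percentiles 1 to 99) for the 3 sets of active elements. Members and elements listed only with IFN-γ overlie each other in activity, while members are the widest set, with a median of 969 bp, and the thinnest per 500 bp, with a median of 0.692.

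Activity ran on without a gap across the threshold. The 5 lowest members had an activity between 1.000 and 1.001 and lay nearest to Abr, Enpp2, Plk2, Tmem186 and Plagl2. The 5 highest elements left out for activity, nearest to Thap1, Tent5a, Gm10644, Grtp1 and Wdfy1, had values of 0.9988 to 0.9998. A further 9987 elements absent from the IFN-γ table had an activity under 1.

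Most members lay inside genes, as active elements did in general. The deposited class was genic for 71.1% of members, 71.4% of shared elements and 65.8% of elements listed only with IFN-γ. Each element was put in 1 class of the GENCODE annotation, coding exons first, then untranslated regions. By this order 1375 members lay in introns without touching an exon, 940 between genes, 659 on a coding exon, 147 on an untranslated region with no coding exon and 127 on a non-coding exon. Coding exons were touched by 20.3% of members, 15.9% of shared elements and 14.1% of elements listed only with IFN-γ. Any touch counted, so wider elements had more occasions, and the shares were not adjusted for width. Elements on an untranslated region that touched no coding exon were 4.53%, 8.47% and 3.97%. The nearest protein-coding start site was a median of 27.3 kb away, against 16.6 kb for shared elements and 32.4 kb for those listed only with IFN-γ.

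Members had fewer target genes than shared elements. Their shares with 1 target and with 2 or more were near those of the whole Ctr-OPC table, 59.9% and 40.1%. Members entered 5719 element-gene pairs, and 1920 members (59.1%) had a single target, against 32.05% of shared elements. Only 40.9% had 2 or more targets, against 67.95% of shared elements and 44.25% of elements listed only with IFN-γ. Targets numbered 5 or more for 4.495% of members, 21.2% of shared elements and 7.63% of all Ctr-OPC elements. A protein-coding gene was among the targets of 1844 members (56.8%), against 72.7% of shared elements and 55.9% of all Ctr-OPC elements. The nearest protein-coding gene was a target of 46.8% of members and 62.7% of shared elements. Member pairs spanned a median of 22.4 kb, with quartiles of 8.85 and 109 kb, whereas pairs of shared elements spanned 41.65 kb and those of elements listed only with IFN-γ 32.9 kb. Over all pairs of the Ctr-OPC table the median was 15.15 kb, so member pairs lay between these and shared pairs. Contact behind a pair had a median of 0.0153 for members, 0.00994 for shared elements and 0.0182 for all Ctr-OPC pairs, on the contact scale of the tables. The share with 2 or more targets was 22.3% in the set redrawn with scores above 0.05 and 23.6% with only protein-coding targets. The median distance of member pairs was 10.9 kb and 56.4 kb at activity thresholds of 0.5 and 2. In the set redrawn with scores above 0.05 it was 6.89 kb.

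ABC scores of members lay close to the lowest deposited score of 0.02. The highest score of a member had a median of 0.0288, against 0.0473 in shared elements and 0.0294 in elements listed only with IFN-γ. A score above 0.05, the cutoff of the study's methods, was reached by 436 members (13.4%) and by 46.5% of shared elements. A member pair was the top pair of its gene in 2025 of 5719 cases (35.4%), against 42.5% of shared pairs.

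How often an active Ctr-OPC element belonged to the set followed its score and its width. Of elements with a highest score of 0.02 to 0.03, 45.5% were members, which fell step by step to 22.8%, 9.35% and 5.08% for scores of 0.03 to 0.05, 0.05 to 0.1 and 0.1 and above. Of elements 500 bp wide, 14.0% were members, and of those wider than 1000 bp, 45.4%. Within the lowest score class the values were 29.5% at 500 bp and 70.0% over 1000 bp, and at scores of 0.1 and above they were 4.295% and 4.97%. The mirror set had the same order by width, with 19.6% at 500 bp and 50.6% over 1000 bp listed only with IFN-γ. Of all active elements, 41.55% were wider than 500 bp in the Ctr-OPC table and 32.8% in the IFN-γ-OPC table. The part of the lowest deposited score and of element width in the absence of members from the IFN-γ table was not tested.

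**Figure D2:**
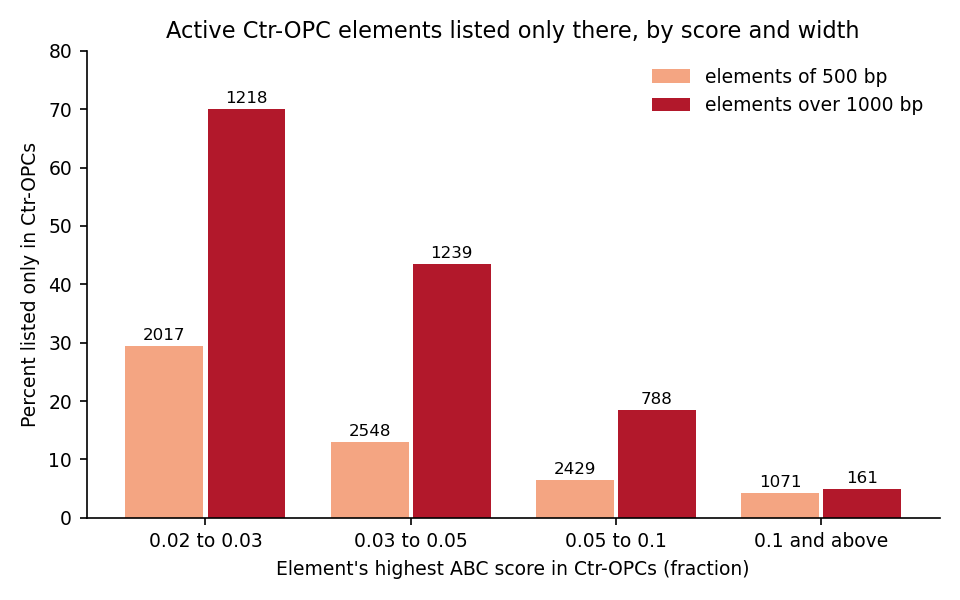
Percent of active Ctr-OPC elements listed only there (y axis) by the element's highest ABC score, for elements of 500 bp and of over 1000 bp; numbers above the bars count the active elements in each class. The share falls with the score in both width classes, from 70.0% to 4.97% in the wide elements and from 29.5% to 4.295% in the narrow ones.

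Absence from a table does not give a value, but it gives a bound. Where a target gene was listed with IFN-γ, a missing element had an activity times contact below 0.02 of that gene's total, unless the region was not scored at all. The bound could be computed for 2558 members and had a median of 0.676 of the Ctr-OPC value, with quartiles of 0.514 and 0.821. At 0.5 or less lay 591 members, which is 18.2% of all members and 23.1% of those with a bound. In the set redrawn with scores above 0.05 in both tables, where the bound uses 0.05 in place of 0.02, the share was 3.85%. Among elements listed only with IFN-γ, the mirror bound was at 0.5 or less for 17.3%. Shared elements have values on both sides: of 9454 with a matched pair, 966 (10.2%) had their lowest matched pair at 0.5 or less, and 29.0% at or under the members' median bound. A matched pair needs a score of 0.02 in both tables, which limits how low it can be. For 120 members the bound exceeded 1, so that an unchanged element would also have been missing.

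Bounds were lowest beside promoters. The bound is 0.02 divided by the Ctr-OPC score and scaled by the change in the gene's total, so it is low where that score was high and is no measurement separate from it. Of 222 members with a bound and an edge within 1 kb of an annotated start site, 158 (71.2%) were at 0.5 or less and 63 at 0.25 or less. Of 2336 farther members, 433 (18.5%) were at 0.5 or less and 27 at 0.25 or less. The median bound was 0.371 near a start site and 0.695 farther away. Neither table holds an element of promoter class or one with an edge under 500 bp from the start site of any listed gene, so a region that shifts into that zone drops out whatever its activity. Whether this occurred at these members was not tested. Within 1 kb of a start site lay 8.13% of members, 8.52% of shared elements and 5.02% of those listed only with IFN-γ. In the set redrawn with scores above 0.05, 14.0% of elements lay there.

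**Figure D3:**
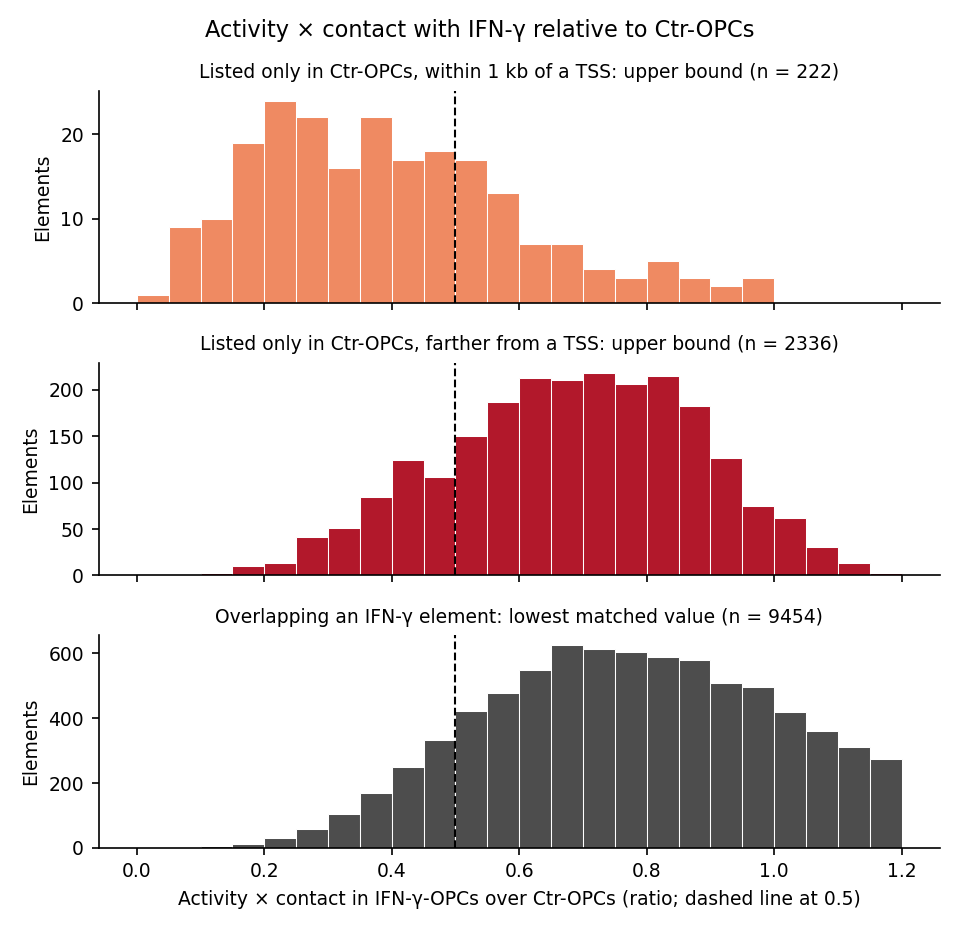
Number of elements (y axis) by the ratio of activity times contact in IFN-γ-OPCs to that in Ctr-OPCs; for members the ratio is an upper bound, shown within 1 kb of a start site and farther away, and for shared elements it is the lowest matched value (axis ends at 1.2; 1658 shared elements and 11 members lie beyond). The median bound is 0.371 beside start sites and 0.695 elsewhere.

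Most of the members with the highest scores were of this promoter-flanking kind. The element at Zfx, a zinc finger transcription factor gene on chromosome X, had an activity of 2.03 and an ABC score of 0.447, and its edge lay 965 bp from the start site. Its bound was 6.76% of the Ctr-OPC value. The element at Ndp, which encodes the secreted Wnt receptor ligand norrin, scored 0.325 with a bound of 8.0% at 644 bp. The element on an untranslated exon of Slitrk5, a neuronal transmembrane protein gene, scored 0.313 with a bound of 6.99% at 536 bp, and an IFN-γ element of activity 1.23 lay 785 bp away. The Grm3 element, with an activity of 1.27, scored 0.265 with a bound of 9.41% at 680 bp, and the nearest IFN-γ element was 21.8 kb away. Scores of 0.196 to 0.205 and bounds of 9.01% to 10.3% were found 631 to 680 bp from the start sites of Ndnf, Lrrtm1 and Elovl4, the last a fatty acid elongase gene. The exceptions by distance were Cdh10, a cadherin gene, whose element scored 0.216 at 2.36 kb with a bound of 9.15%, and Fam171a1, whose element scored 0.231 at 3.97 kb. Fam171a1 itself was not listed with IFN-γ, and the bound of 79.8% came from another target. The Cdh10 element, with an activity of 1.255, lay 518 bp from an IFN-γ element of activity 1.285, so the neighbouring stretch was still listed.

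The element at the start of chromosome 9 scored 0.803 for Gm10717 and had an activity of 5.37 and 12 target genes. Contact was above 0 for Gm10717 and 0 for the 11 other targets, among the 46 of 5719 member pairs with a contact of 0. The bound of the element, 0.459%, was the lowest of all. The bases shown above recur in blocks, and reads of a repeat cannot be placed with certainty in 1 copy. The nearest IFN-γ element was 258 kb away.

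The members of highest activity had highest scores on both sides of the members' median of 0.0288. The most active of all, with an activity of 9.17 over 912 bp, lay in an intron of Gm20388, 57.2 kb from the start site of Zfpm1. It scored 0.0285 for Zfp469 and 0.0202 for Zfpm1, which encodes a GATA cofactor, and was the top pair of both. Its bound was 54.9%, and the nearest IFN-γ element was 34.4 kb away with an activity of 0.847. An intron of Npas3, a neural basic helix-loop-helix PAS factor gene, held the next, with an activity of 5.84, 9 target genes, a highest score of 0.0550 for 1700030L22Rik and a bound of 37.2%. Elements by Hjurp, Sipa1l2, Hivep3, Polr3b, Rgs3 and Lsamp had activities of 4.51 to 5.15 and highest scores of 0.0202 to 0.0410.

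A member in the major histocompatibility complex was among both the most active and the most connected. It lay on chr17:34121162-34121661, on an untranslated region within the overlapping genes Brd2 and H2-DMa, with an activity of 4.68 and 13 target genes. H2-DMa, a chaperone subunit for peptide loading of class II molecules, scored 0.133, and Brd2, a bromodomain gene, 0.131, with bounds of 16.7% and 16.5%. The element's edge lay 594 bp from an annotated start site and 0.973 kb from that of Brd2, so it was also of the promoter-flanking kind. The total input of both genes was higher with IFN-γ, by 0.15 and 0.12 on the log2 scale. Tap1 and Psmb9, which supply peptides to class I molecules, each scored 0.0249 through this element as their single listed pair, and their bound was 109%, so the absence of these pairs sets no limit below the Ctr-OPC value; the limit on the element comes from Brd2 and H2-DMa. The nearest IFN-γ element was 10.9 kb away with an activity of 1.19. The total input of Tap1 was higher with IFN-γ by 0.43 on the log2 scale. Other members with many targets were an element 193 kb from Dad1 with 19 targets, led by the T cell receptor segment Traj61, one on Hist1h1c with 16 targets in the histone cluster, and one 2.05 kb from Tubb4b with 14. The Tubb4b element, with an activity of 3.08, had bounds of 22.2% for Slc34a3 and 34.5% for Tubb4b.

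Of all 25779 genes of the Ctr-OPC table, 5016 (19.5%) were a target of a member. Against this, 8 of 20 OPC lineage genes were targets, 5 of 19 listed myelin and maturing oligodendrocyte genes, 9 of 29 growth factor and cell cycle genes, 2 of 9 AP-1 and immediate early genes, and 3 of 31 IFN-γ-induced genes. Genes with many active elements have more occasions to hold a member, so pairs were also counted. Member pairs were 14.0% of all pairs of active elements, 11.1% for the OPC lineage (9 of 81), 14.6% for myelin genes (6 of 41), 9.78% for growth factor and cell cycle genes (9 of 92), 6.67% for immediate early genes (2 of 30) and 9.38% for IFN-γ-induced genes (3 of 32). Per pair, only the myelin list lay above the value over all genes, by less than 1 percentage point.

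For the listed genes, a bound is that of the pair of element and gene, and a lower bound of the element through another target is given where it differed by more than 5 percentage points. In the OPC lineage list the member of highest score lay at Vcan, the gene of the proteoglycan versican. It was on an untranslated exon, with an activity of 2.52, and was the top of 3 listed pairs with a score of 0.119 at 2.05 kb from the start site of Vcan. Its edge lay 751 bp from another annotated start site, so it was of the promoter-flanking kind. Its bound was 17.6%, and the nearest IFN-γ element was 13.4 kb away with an activity of 0.753. The Tnr element had an activity of 2.02, was the top of 5 pairs with a score of 0.0380, and had a bound of 47.8%. Members for Ptprz1, a receptor phosphatase gene, and Olig1 scored 0.0360 and 0.0259 with bounds of 70.7% and 70.2%, and the bound of the Ptprz1 element was 57.8%. Those for Sox5 and Cspg5 scored 0.0241 and 0.0203 with bounds of 90.1% and 94.0%, so that little change was needed for them to be missing. Sox6, which with Sox5 holds OPCs immature, had 2 members that scored 0.0290 and 0.0232, with bounds of 70.3% and 87.9%. Through Sox6os the bounds of these elements were 42.9% and 53.7%. They lay 359 and 77 bp from IFN-γ elements with activities of 1.70 and 1.86, so the neighbouring stretch was still listed.

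Myelin genes had members of lower score. The Cldn11 element spread an activity of 1.99 over 2105 bp, scored 0.0418 at 63.3 kb and had a bound of 47.7%. Sirt2, a deacetylase gene, had a member with a score of 0.0316 and a bound of 54.3%. Tcf7l2, a transcription factor of maturing oligodendrocytes, had one with a score of 0.0309 that lay 208 bp from an IFN-γ element of activity 1.39. Ugt8a, which makes the myelin lipid galactosylceramide, had 2 intronic members with scores of 0.0276 and 0.0231. Mobp and Mbp, both myelin protein genes, were nearest to 3 and 2 members without being their target.

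Genes of growth factor signalling had members with the receptors and with the feedback genes downstream. Etv5 had the highest score of the list, 0.0539, from the intronic element shown above, with an activity of 2.55 and a bound of 35.4%. The edge of this element lay 817 bp from the start site of Etv5, so it too was promoter-flanking. Dusp6, a phosphatase gene that limits ERK signalling, had a member of activity 1.16 with a score of 0.0491 and a bound of 40.3%. The same element scored 0.107 for Gm34921, and its bound was 20.75%. Members for the fibroblast growth factor receptors Fgfr2 and Fgfr3 scored 0.0403 and 0.0307, with bounds of 53.7% and 57.5%, and the one for Fgfr1 scored 0.0209 and had no bound, since that gene was not listed with IFN-γ. Erbb3, a neuregulin receptor gene, had a score of 0.0351 and a bound of 61.5%. The cyclin D genes Ccnd1 and Ccnd2 had scores of 0.0297 and 0.0239 with bounds of 53.8% and 77.0%. The element for Pdgfa, with an activity of 4.25 in an intron of Prkar1b, scored 0.0215 and had a bound of 81.1%. Near Pdgfra, the receptor gene that defines OPCs, 2 wide members with activities of 2.96 and 1.71 lay 46.9 and 55.9 kb from the start site and had other genes as targets.

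Among IFN-γ-induced genes, H2-D1 had a member with a score of 0.0283 and a bound of 81.4%, beside Tap1 and Psmb9 above. The same element scored 0.0743 for Mir8094, and its bound was 28.2%. Among immediate early genes, Egr1 and Ier2 had members with scores of 0.0328 and 0.0315 and bounds of 55.3% and 51.9%. Across all 5 lists, 6 pairs had a bound of 0.5 or less, among them those of Tnr, Vcan, Cldn11, Dusp6 and Etv5. Over all genes, 815 of 5719 member pairs did. Beside Vcan and Etv5, members for Olig1, Cspg5, Sox6 (1 of 2), Tcf7l2, Fgfr2 and Erbb3 also had an edge within 1 kb of an annotated start site, at 518 to 899 bp.

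**Figure D4:**
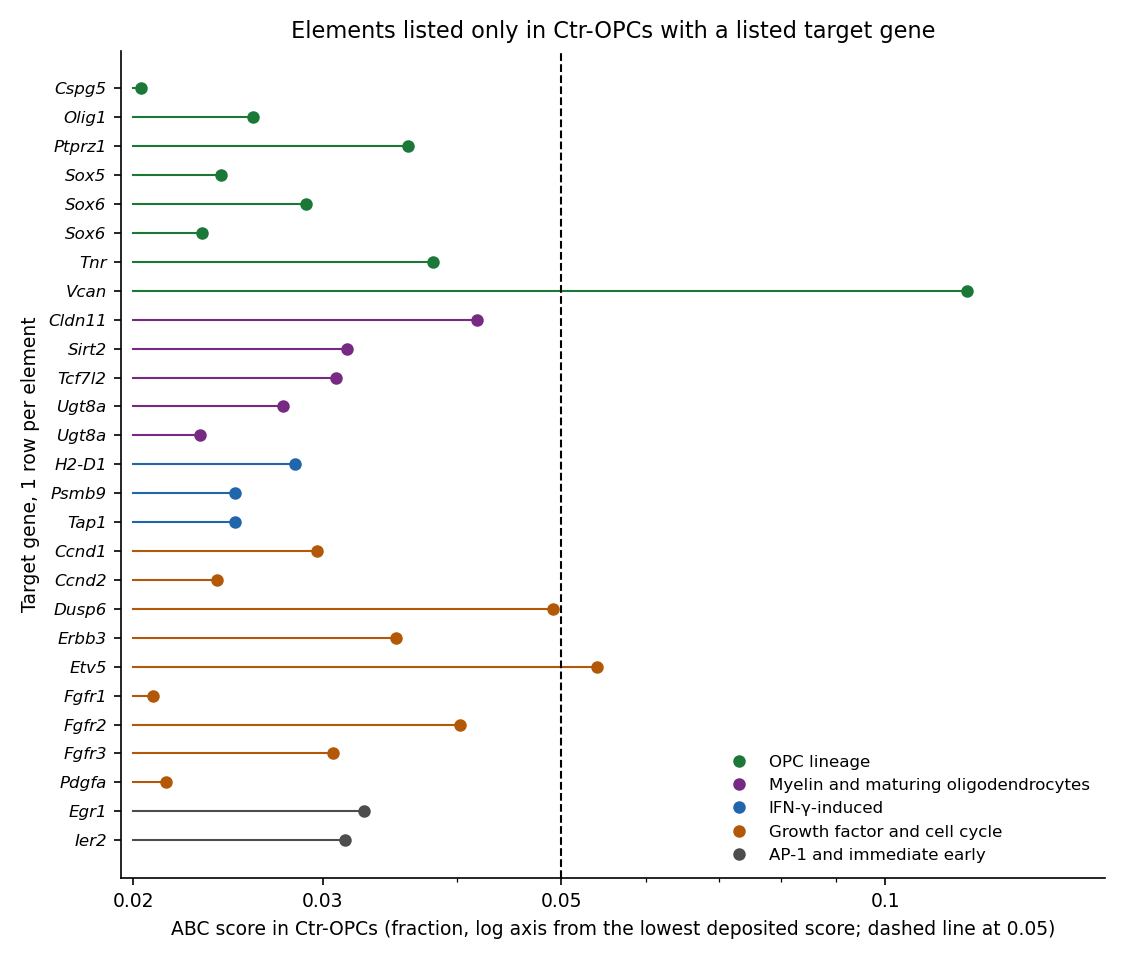
ABC score in Ctr-OPCs (log x axis from the lowest deposited score of 0.02, dashed line at 0.05) of the members reported here with a target gene in the 5 lists, 1 row per element and gene, coloured by list. Only Vcan, at 0.119, and Etv5, at 0.0539, lie above 0.05.

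For 690 members (21.2%) no target gene was listed with IFN-γ, which left no bound. The set redrawn with scores above 0.05, the cutoff of the study's methods, asks more of a target. In it, 64.9% had no target gene with a score above 0.05 in IFN-γ-OPCs. Among shared elements, 2.47% had no target gene listed with IFN-γ at any deposited score. Among elements listed only with IFN-γ, 22.1% had no target in the Ctr-OPC table. A gene is listed only when a pair reaches a score of 0.02 and its promoter activity passes the quantile of 0.4 that is the lowest in the tables. Of the 5016 target genes of members, 3684 (73.4%) were in the IFN-γ-OPC table, against 78.8% of all Ctr-OPC genes. The 1332 absent genes had a median promoter quantile of 0.562 in Ctr-OPCs, and the 3684 present ones 0.711. Of the absent genes, 488 were protein-coding and 538 had no other listed pair than those of members.

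The total input of the target genes, the sum of activity times contact over all elements of a gene, was also set beside that of other genes. Its log2 change with IFN-γ had a median of -0.07 over 3684 member target genes and -0.07 over all 20321 genes in both tables. At least 1.25-fold lower were 2.91% of all genes and 4.02% of member targets, and 4.30% and 4.10% were at least 1.25-fold higher. Over the 793 genes with a pair bounded at 0.5 or less, the median was -0.14 and 10.2% were at least 1.25-fold lower. The missing element is itself part of the Ctr-OPC total, so these last values are not independent of the absence. The bound also contains the gene's IFN-γ total, so a choice of low bounds favours genes with a lower total.

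In sequence, members held each motif about as often as the Ctr-OPC table as a whole, and the IRF motif of the IFN-γ response was more frequent in elements listed only with IFN-γ. Motifs were searched on both strands of the 500 bp around each element's centre. The IRF motif (GAAA, any 2 bases, GAAA) was present in 4.43% of members, 5.92% of shared elements, 14.2% of elements listed only with IFN-γ and 5.41% of all Ctr-OPC elements. The STAT motif (TTCNNNGAA) was present in 13.5%, 14.3%, 17.9% and 13.9%, and the AP-1 motif (TGANTCA) in 14.1%, 14.0%, 17.2% and 14.5%. For the E-box CAGCTG, a motif of basic helix-loop-helix factors, the values were 37.4%, 40.5%, 35.0% and 37.3%. The short SOX motif (ACAANG) was present in 68.8%, 69.3%, 71.6% and 68.4%, the NFI motif (TTGGCA) in 29.0%, 30.7%, 30.0% and 29.7%, and the CTCF motif in 6.62%, 7.36%, 5.72% and 7.47%. Matches of different motifs may share bases and were counted separately, and a match is a description of the letters and not of a bound factor. Median GC content was 50.8%, 51.6%, 49.2% and 50.6%.

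**Figure D5:**
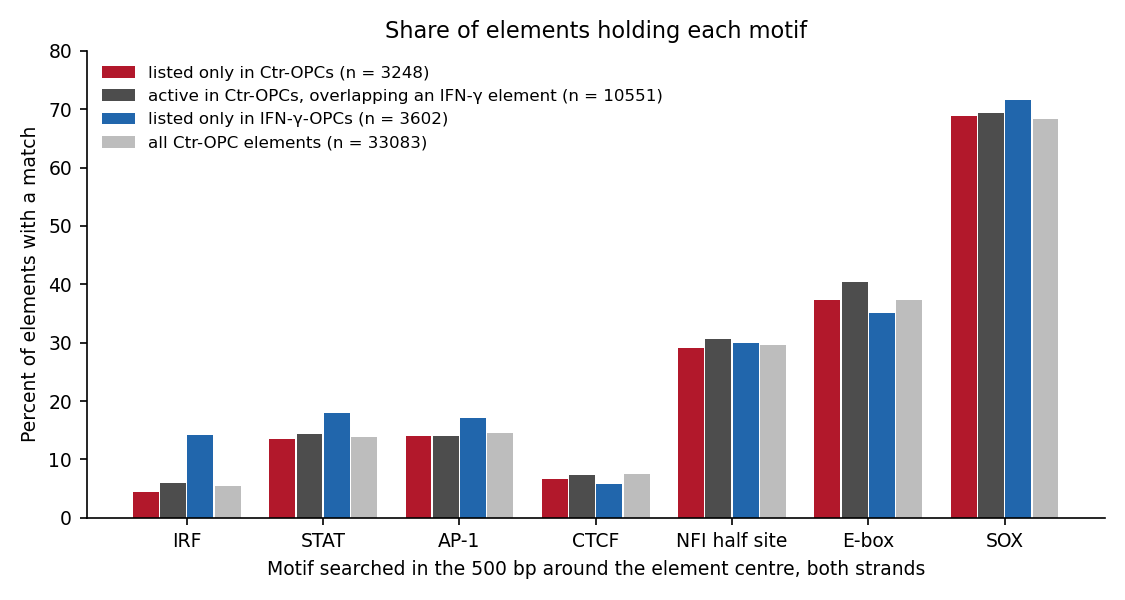
Percent of elements (y axis) with at least 1 match to each motif in the 500 bp around the centre, for members, shared elements, elements listed only with IFN-γ and all Ctr-OPC elements. The IRF motif is present in 4.43% of members and 14.2% of elements listed only with IFN-γ, while members and shared elements have bars of similar height for all 7 motifs.

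Most members lay some distance from what was listed with IFN-γ. The nearest IFN-γ element was a median of 12.5 kb away, with quartiles of 4.90 and 32.1 kb. It lay within 500 bp of 211 members (6.50%) and within 1 kb of 295 (9.08%), while 1826 members (56.2%) had none within 10 kb. Another member lay within 10 kb of 359 members (11.1%), in 171 groups of at most 4. By chromosome, the share of active elements that were members ranged from 18.8% on chromosome 5 to 27.9% on chromosome 8 among the autosomes, and was 9.70% on chromosome X, where 16 of 165 were members.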

How the data were processed

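H3K27ac HiChIP of primary mouse OPCs was used, with 3 libraries per condition, grouped by the treatment in the labels. Per the study's methods, the authors aligned reads to mm10 and removed duplicates with HiC-Pro, and ran the ABC model on HiChIP contacts, ATAC-seq and CUT&RUN for H3K27ac, with default parameters for candidate elements and their activity. The labels name a size of 5 kb for the tables. The deposited table of each condition pools its libraries. The activity of an element is a signal the authors took from read coverage. The deposited ABC score is a fraction, and the promoter quantile runs from 0 to 1. The authors' contact, and contact times activity, are score values on no fixed scale, and how activity was scaled between conditions is not given in the sources used here. The authors' short tables and link lists hold the same scores and were not used.

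Elements were unique intervals. Gene totals were recovered as the product over the score, and the bound is 0.02 times the IFN-γ total over the Ctr-OPC product, the lowest over a member's targets. Where an element had several features, coding exon came first, then untranslated region, other exon and intron. Symbols, start sites and features came from GENCODE M21, and sequence from RefSeq GRCm38.p6. Members, gene lists, motifs and named elements were chosen with earlier results of these data known. Named were the 10 members of highest activity, the 10 of highest score for a protein-coding target, the 5 with most targets, those with a target or nearest gene in the 5 lists, and 5 elements on each side of the threshold. Where members are named by nearest gene or by a gene's share outside this rule, they were chosen after their values were seen. Computation was in Python 3.11.15 (NumPy 2.4.6, pandas 2.3.3, SciPy 1.17.1), and plots were drawn with matplotlib 3.10.9. The alternatives were activity thresholds of 0.5 and 2, other overlap rules, a score above 0.05, protein-coding targets, and leaving out members near start sites. Some elements and genes that the naming rule covers are not reported here; they stay in the counts.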

Additional observations from a re-analysis of the deposited data

How the results depend on the processing

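No paired analysis was possible because each condition has 1 pooled table and no value per library, and for the same reason no library could be left out. Of 64 recomputed values, 19 stayed within the main value's binomial or rank interval (for the number of members, within 1.5 times) and 45 moved outside it. The intervals treat elements as independent and hold no variation between libraries, so they only grade the size of a shift. Only the log2 change in total input can take either sign, and it stayed negative. The main values were 3248 members, a share of 23.5%, 71.1% genic, 8.13% within 1 kb of a start site, 40.9% with 2 or more targets, a median distance of 22.4 kb, 21.2% without a target with IFN-γ, 18.2% bounded at 0.5 or less, and a median log2 change in total input of -0.073.

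An activity threshold of 0.5 gave 9597 members, 35.1%, 68.4% genic, 9.24% near a start site, 29.5% with 2 or more targets, 10.9 kb, 25.7% without a target and 14.6% bounded. A threshold of 2 gave 423 members, 10.02%, 74.7%, 10.4%, 59.3%, 56.4 kb, 14.4%, 23.6% and -0.087 in the same order. Counting an IFN-γ element within 500 bp as listed gave a share of 22.0% and 16.4% bounded. Requiring a reciprocal overlap of 50% gave a share of 32.2%, 46.4% with 2 or more targets, 16.2% without a target and 20.6% bounded. With scores above 0.05 in both tables there were 1792 members, a share of 33.5%, 14.0% near a start site, 22.3% with 2 or more targets, 6.89 kb, 64.9% without a target, 3.85% bounded and -0.092. With protein-coding targets there were 1844 members, a share of 19.4%, 74.8% genic, 11.6% near a start site, 23.6% with 2 or more targets, 15.4 kb, 18.4% without a target and -0.094. Without members near a start site the share was 21.6%, with 38.9% having 2 or more targets, 24.7 kb and 14.5% bounded. Centring totals on all genes gave -0.007, and dividing IFN-γ totals by their median change gave 16.3% bounded. The cause of these shifts was not tested, apart from those that follow from fewer or more elements being counted.

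The depth of the tables is unknown, and a score under 0.02 is not listed, so absence is a limit and not a zero. Elements with edges within 500 bp of IFN-γ elements, such as those of Sox6 and Tcf7l2, leave the set under the wider overlap rule.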

Other observations

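For 960 of the 5016 target genes of members, all listed pairs in Ctr-OPCs came from members. At 864 of these genes the member pair was the only listed pair, so the count mostly reflects genes with 1 pair. The genes named here, at which members carried most or all of the listed input, were chosen after their values were seen. Tspan5, a tetraspanin gene, had 3 listed pairs, all from members, with a summed ABC score of 0.212, and was not listed with IFN-γ. Of 6 active elements nearest to Tspan5, 5 were members. Flrt2, which encodes an adhesion protein of the fibronectin leucine-rich family, had 5 listed pairs, of which 3 were from members with 85.3% of the summed score, and was not listed with IFN-γ either. Msl3 and Stau2 had a single listed pair each, from a member, with scores of 0.187 and 0.164, and 3 and 1 pairs with IFN-γ from other elements. Zfp91 and Lpxn shared 1 member that held 87.9% of the summed score of each.

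Members were spread over 2592 nearest protein-coding genes, and 2100 of these had 1 member. The genes named next were also chosen after their values were seen. The genes nearest to the most members were Rgs3, a regulator of G protein signalling, and Zfp608, with 7 each, of 11 and 22 active elements. Npas3 had 6 of 11. Dusp7, a phosphatase gene of ERK signalling, had 5 of 6, and Sox2, a factor of neural progenitors, 5 of 22, or 22.7%, which is near the 23.5% of all active Ctr-OPC elements that were members. All 4 active elements nearest to E2f7, a cell cycle repressor, were members.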
